A study of Mus musculus with 4 samples.

Results

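The 40 cell cycle and DNA replication genes described here were taken from a set list of symbols and matched to the probes of a mouse expression array by gene name or by RefSeq accession. All 40 were found among the 26793 genes of the array. They comprised 15 genes used in S phase or at entry into it, 24 genes of G2 and M phase, and Ccnd1, the cyclin D1 gene of G1, which was kept apart. RNA came from IMS/N cells, a hepatic stellate line of normal 129/Sv mouse liver that was immortalized with SV40, a virus whose large T antigen is known to bind p53 and the retinoblastoma proteins. The cells received palmitic acid (PA) together with culture medium of adipose tissue-derived stem cells (ADSCs), PA alone, ADSC medium alone, or neither (control). The ADSCs were grown from the inguinal fat of male C57BL/6J mice aged 8 to 10 weeks. The dose and time of PA, and the medium that the control cells received, are not stated in the labels.

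Each of the 4 conditions was measured on 1 one-colour Agilent array, so a difference between conditions is a difference between 2 arrays, with no replicate check, and no test was possible. The arrays shared 1 slide and 1 scan. A level is a quantile-normalized log2 intensity and a difference is one level minus another, so that 0.58 corresponds to 1.5-fold. Repeat spots of the same probe within an array gave the only measure of error. For a difference of single spots (spot SD below) it was 0.0589 at levels of 11 and over and 0.0667 at levels of 9 to 11, and it leaves out the variation between cultures. Between 67.5% and 70.0% of probes were well above background on an array, a flag set by the scanner software, and the number of arrays limits the precision. All 40 members were well above background on all 4 arrays, as were 63 of their 69 probes, while 5 probes were so on none. Of 11 stellate markers 8 were well above background on all 4 arrays, Acta2, Col1a1, Pdgfrb and Des among them, and Lrat, Reln and Hand2 were so on none. Of the markers of other cell types, 1 of 5 hepatocyte (Tat), 3 of 6 macrophage (Cd68, Csf1r and Cd14), 3 of 5 endothelial (Kdr, Tek and Stab2), 3 of 4 biliary (Krt19, Krt7 and Sox9) and 1 of 5 adipose markers (Fabp4) were well above background on all 4 arrays. The others, among them Alb, Adgre1, Ptprc, Pecam1, Cdh5, Epcam and Adipoq, were so on none.

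Proliferating cells express their cell cycle genes in waves. E2F transcription factors, held back by the retinoblastoma proteins until G1 cyclin kinases release them, switch on genes for origin licensing, nucleotide supply and DNA synthesis before and during S phase. Later, B-Myb and FoxM1 together with the MuvB complex switch on genes for the mitotic kinases, spindle and kinetochore, through promoter elements called the cell cycle genes homology region (CHR) and CCAAT boxes. NF-Y is the factor that binds CCAAT boxes. In the injured liver, stellate cells that leave quiescence divide as well as deposit matrix.

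The promoters of the members are shown first, because the division into S phase and G2 and M phase genes that runs through the measurements is also visible in them. RefSeq windows on GRCm38.p6, from 250 bases before to 50 after each gene's start, existed here for 18 G2 and M phase members and 13 S phase members, and for 27025 genes in all. Mcm4, Ccne2, Tpx2, Cdc25c, Ccna2, Kif20a, Foxm1, Aurkb and Ccnd1 had no entry. The CHR was searched as TTTGAA or TTCGAA, the CCAAT box as CCAAT, and the E2F site as TTCCCGC, as TTGGCGC, as TTCGCGC or as TTGCCGC, each on both strands. Matches of different motifs can overlap, as CCAAT and GCGCCAA do in Ccnb1, and so can matches of the same motif. A gene with several windows, such as Mcm7, counted as holding a motif if any of its windows did. A CHR match was present for 14 of the 18 G2 and M phase genes (77.8%), for 2 of the 13 S phase genes (15.4%) and for 21.7% of all genes with a window. An E2F match was present for 3 of the 18 (16.7%), for 8 of the 13 (61.5%) and for 10.9% of all. All 14 G2 and M phase genes with a CHR match also had a CCAAT match, a combination found for 9.65% of all genes with a window. For a gene with several windows the matches could lie in different ones. These matches describe letters in the windows and are not evidence of binding.

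The following stretches are the 120 bases before the start of 4 G2 and M phase genes and 2 S phase genes, in the direction of transcription, with the matches to the CHR, CCAAT and E2F motifs, on either strand, in capitals. Cdc20 (chr4:118437344-118437463, minus strand), Ube2c (chr2:164769809-164769928, plus strand) and Kif11 (chr19:37376262-37376381, plus strand) had lower levels on both arrays with PA than on both without. For Kif11 this held at its brightest probe, but not at its dimmer probes that were well above background. Cdk1 (chr10:69352913-69353032, minus strand) holds the same kinds of match but differed little between arrays. Mcm6 (chr1:128359706-128359825, minus strand) and Rrm1 (chr7:102441575-102441694, plus strand) hold E2F matches instead of a CHR.
Cdc20: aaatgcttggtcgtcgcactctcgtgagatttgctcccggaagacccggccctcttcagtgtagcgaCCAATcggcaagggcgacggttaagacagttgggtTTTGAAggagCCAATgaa
Ube2c: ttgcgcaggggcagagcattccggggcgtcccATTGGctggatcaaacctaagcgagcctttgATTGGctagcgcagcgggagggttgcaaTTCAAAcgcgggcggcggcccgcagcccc
Kif11: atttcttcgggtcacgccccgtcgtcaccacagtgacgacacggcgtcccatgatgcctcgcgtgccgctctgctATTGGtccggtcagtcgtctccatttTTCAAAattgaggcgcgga
Cdk1: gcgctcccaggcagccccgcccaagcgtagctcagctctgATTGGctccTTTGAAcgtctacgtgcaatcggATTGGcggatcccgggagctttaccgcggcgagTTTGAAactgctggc
Mcm6: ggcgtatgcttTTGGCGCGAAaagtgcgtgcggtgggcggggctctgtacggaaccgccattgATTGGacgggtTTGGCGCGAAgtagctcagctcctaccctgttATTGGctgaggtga
Rrm1: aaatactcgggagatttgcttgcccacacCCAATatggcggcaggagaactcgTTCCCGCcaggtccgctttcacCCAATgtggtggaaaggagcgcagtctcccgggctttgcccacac

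PA was compared with control to see how the fatty acid alone was reflected in these genes. The G2 and M phase members were mostly lower on the PA array than on the control array, by a median of 1.16-fold (log2 -0.22), while most S phase members were slightly higher (median 0.10). Of the 24 G2 and M phase genes 21 were lower and 3 higher by any amount, against 51.3% of all 18209 genes compared lower and 48.5% higher, and the median of all genes was -0.01. By at least 1.2-fold, 11 of the 24 were lower and 0 higher, where 15.1% of all genes were lower by as much. None of the 40 members differed by 1.5-fold, which 6.19% of all genes did. With bulk RNA, a smaller share of cells in G2 and M phase and less of each mRNA per cell cannot be told apart.

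Among the mitotic kinases, Plk1, which drives centrosome maturation and spindle assembly, had the lowest difference of all members. Its probe lies on chromosome 7 (129313220 to 129313279, mm9). Plk1 had levels of 12.62 with PA and ADSC medium, 12.82 with PA, 13.23 with ADSC medium and 13.27 in control. Both arrays with PA thus lay below both arrays without it, and PA against control differed by -0.46. Ccnb1 and Ccnb2, the B-type cyclins that activate Cdk1 for mitosis, differed by -0.29 and -0.30, and Cdc25c, the phosphatase that removes the inhibitory phosphates of Cdk1, by -0.31. Cdk1 itself differed by only -0.04 and the S and G2 cyclin Ccna2 by -0.10. The spindle pole kinase Aurka differed by -0.17, and Aurkb, the kinase of the chromosomal passenger complex, by -0.12. Foxm1, which encodes the transcription factor named above, had levels of 12.08 with PA and ADSC medium, 12.15 with PA, 12.09 with ADSC medium and 12.14 in control, a range close to the spot SD.

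Of the spindle checkpoint and anaphase genes, Bub1b, which encodes the checkpoint protein BubR1, had levels of 9.16 with PA and ADSC medium, 9.15 with PA, 9.46 with ADSC medium and 9.53 in control. Its PA difference was -0.39. Cdc20, the activator of the anaphase-promoting complex, had levels of 13.51 with PA and ADSC medium, 13.52 with PA, 13.92 with ADSC medium and 13.87 in control. For both genes the arrays with PA lay together, apart from the arrays without it. Ube2c, the ubiquitin-conjugating enzyme of the same complex, differed by -0.35. Bub1, a checkpoint kinase, had levels of 10.80 with PA and ADSC medium, 11.08 with PA, 11.03 with ADSC medium and 11.04 in control. The array with both treatments stood apart at this probe, and the PA difference was 0.05. A second, dimmer Bub1 probe had levels of 8.06 with PA and ADSC medium, 7.94 with PA, 8.14 with ADSC medium and 8.04 in control, so the probes gave different orders. Mad2l1, which encodes the checkpoint protein Mad2, had levels of 10.27 with PA and ADSC medium, 10.20 with PA, 10.27 with ADSC medium and 10.26 in control, all within about 1 spot SD.

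Kinetochore and spindle genes were lower with PA in 7 of 8 cases. Cenpf, a kinetochore protein gene, had levels of 11.56 with PA and ADSC medium, 11.59 with PA, 11.91 with ADSC medium and 11.98 in control, a PA difference of -0.39. Cenpa, the centromeric histone H3 variant, differed by -0.37. Kif11 encodes the motor that pushes the spindle poles apart, and its probe lies on chromosome 19 (37495755 to 37495814, mm9). Kif11 had levels of 8.63 with PA and ADSC medium, 8.92 with PA, 9.04 with ADSC medium and 9.25 in control. Its arrays formed a graded order rather than pairs, and the PA difference was -0.34 (-0.05 as the mean of its 3 detected probes). The midzone kinesins Kif20a and Kif23, needed for cytokinesis, differed by -0.34 and -0.23, and Tpx2, an activator of Aurora A, by -0.19. Cenpe, a kinetochore motor, had levels of 12.47 with PA and ADSC medium, 12.74 with PA, 12.86 with ADSC medium and 12.81 in control, so that its PA difference was only -0.06. Birc5, which encodes the passenger protein survivin, was the exception, with levels of 15.47 with PA and ADSC medium, 15.62 with PA, 15.41 with ADSC medium and 15.60 in control. The chromosome structure genes Mki67 and Top2a differed by -0.17 and -0.20, although Top2a was at 0.03 as the mean of its detected probes.

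The S phase members were higher on the PA array than on the control array in 12 of 15 cases, with a median difference of 0.10. Under scaling by the 75th percentile 8 of 15 were higher and the median was 0.0006. The median of all genes was then -0.04, with 57.0% of them lower. No S phase member reached 1.2-fold, by which 12.5% of all genes were higher. The highest differences were those of Rrm2, the small subunit of ribonucleotide reductase, and of Cdc6, which loads the replicative helicase at origins. Rrm2 had levels of 12.27 with PA and ADSC medium, 12.30 with PA, 11.97 with ADSC medium and 12.05 in control, a PA difference of 0.24. Cdc6 had levels of 10.19 with PA and ADSC medium, 10.03 with PA, 9.81 with ADSC medium and 9.80 in control, a PA difference of 0.22. A second Cdc6 probe gave a PA difference of -0.01. Cdt1, the partner of Cdc6 in helicase loading, had levels of 14.12 with PA and ADSC medium, 13.94 with PA, 13.85 with ADSC medium and 13.80 in control. For all 3 genes, at the probes whose levels are given, both arrays with PA lay above both arrays without it. At the second Cdc6 probe this held for the array with both treatments (9.97) but not for the PA array (9.64), against 9.72 with ADSC medium and 9.65 in control.

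The helicase subunits Mcm2, Mcm3, Mcm5, Mcm6 and Mcm7 differed by 0.01 to 0.11 between PA and control. Mcm4, the remaining subunit, had levels of 14.24 with PA and ADSC medium, 14.04 with PA, 14.21 with ADSC medium and 14.10 in control, with the PA array lowest. Rrm1, the large subunit of ribonucleotide reductase, had levels of 13.30 with PA and ADSC medium, 13.56 with PA, 13.34 with ADSC medium and 13.47 in control. Both arrays with ADSC medium lay below both without it, an order unlike that of Rrm2. Tyms, which makes thymidylate, differed by 0.10. E2f1, an activating E2F, had levels of 9.96 with PA and ADSC medium, 9.89 with PA, 9.94 with ADSC medium and 9.91 in control, all within about 1 spot SD.

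**Figure D1:**
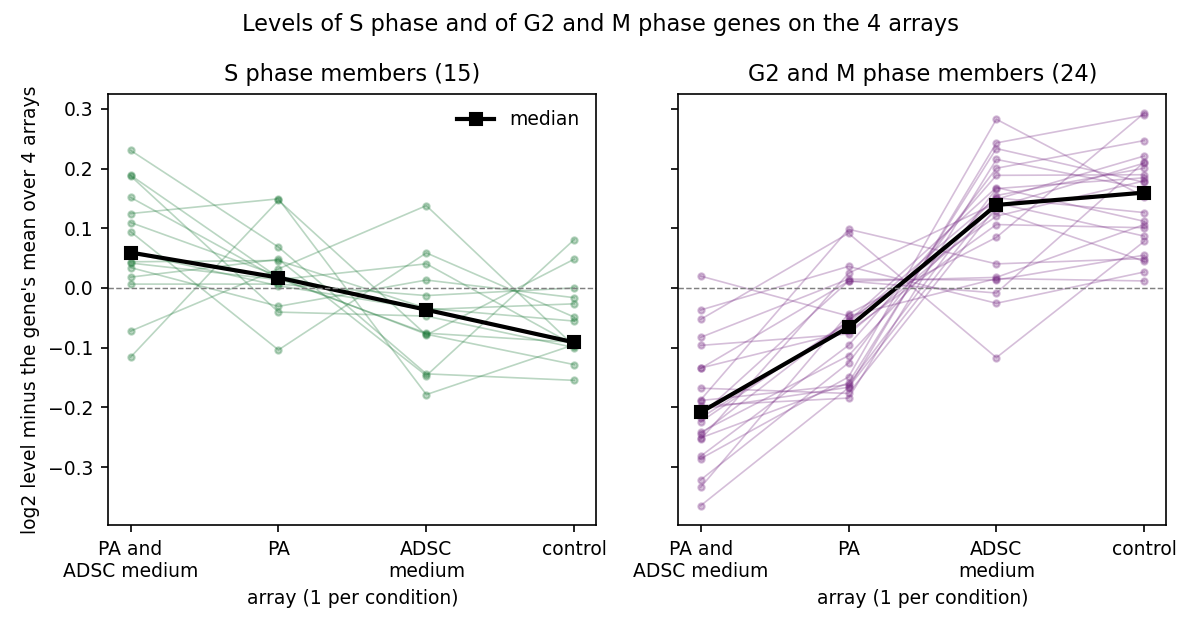
Level of each S phase member (left, 15 genes) and each G2 and M phase member (right, 24 genes) on the 4 arrays, as log2 level minus the gene's own mean over the arrays, with 1 thin line per gene and the median in black. The median of the G2 and M phase members was -0.21 with PA and ADSC medium and -0.07 with PA, against 0.14 with ADSC medium and 0.16 in control, while that of the S phase members was 0.06 with PA and ADSC medium, 0.02 with PA, -0.04 with ADSC medium and -0.09 in control.

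The same question was asked again on the other pair of arrays, PA and ADSC medium against ADSC medium, which shares no array with PA against control. The G2 and M phase members were again lower with PA, by a median of 1.28-fold (log2 -0.36), and the S phase members higher, by a median of 0.10. Of the 24 genes 22 were lower and 2 higher, and 15 were lower by at least 1.2-fold. Lower levels were found for 52.4% of all 18467 genes, and for 17.1% the difference was 1.2-fold or more. The median of all genes was -0.02. Of the 15 S phase members 13 were higher and 2 lower, and 3 were more than 1.2-fold higher, Cdc6 (0.37), Rrm2 (0.30) and Cdt1 (0.27). Higher levels were found for 47.4% of all genes, with 13.6% past 1.2-fold. Plk1 was the 1 member past 1.5-fold, 1.52-fold lower (-0.61), where 3.14% of all genes were lower by as much and 6.67% differed by it in either direction. Ccnb2 (-0.57), Cenpa (-0.52), Kif20a (-0.48) and Ccnb1 (-0.47) came next.

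Gene by gene, 20 of 24 G2 and M phase members were lower with PA on both pairs of arrays and 1, Birc5, was higher on both, by 0.06 with and 0.01 without ADSC medium, the smaller value being within the spot SD. Of the S phase members 10 of 15 were higher with PA on both pairs and 0 lower on both. Over all 17972 genes compared on both pairs, 33.9% were lower on both and 29.7% higher on both. Across the 40 members the PA differences of the separate pairs had a Pearson correlation of 0.87 and a Spearman correlation of 0.84. Within the G2 and M phase members the Pearson correlation was 0.79, within the S phase members 0.42, and over all genes 0.52. These correlations run across genes, which are not independent replicates, and all 4 arrays share 1 slide. With 75th percentile scaling 22 of 24 G2 and M phase members were lower on both pairs and 0, Birc5 included, higher on both. Of the 15 S phase members 6 were then higher on both and 2 lower on both. This scaling also moved all genes. Without ADSC medium 57.0% of them were lower with PA (51.3% with quantiles), and with ADSC medium 51.9% (52.4% with quantiles). The shares of 33.9% and 29.7% above are from quantile normalization and are no reference for these counts.

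The difference tended to be more negative with ADSC medium than without it for the G2 and M phase members, in 20 of 24 cases, with a median gap of -0.08 and a range from -0.33 (Cenpe) to 0.08 (Bub1b). For the S phase members the gap had a median of 0.06 and ran from -0.34 (Ccne1) to 0.20 (Ccne2). Such a gap was found for 52.1% of all genes, and the median gap of all genes was -0.01. Cenpe differed by -0.40 with and -0.06 without ADSC medium, while its further probes gave gaps of -0.19 and -0.08. Bub1 differed by -0.23 with and 0.05 without it, but its second probe gave a gap of 0.03. Ube2c had nearly the same PA difference on both pairs, at -0.36 with and -0.35 without ADSC medium.

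**Figure D2:**
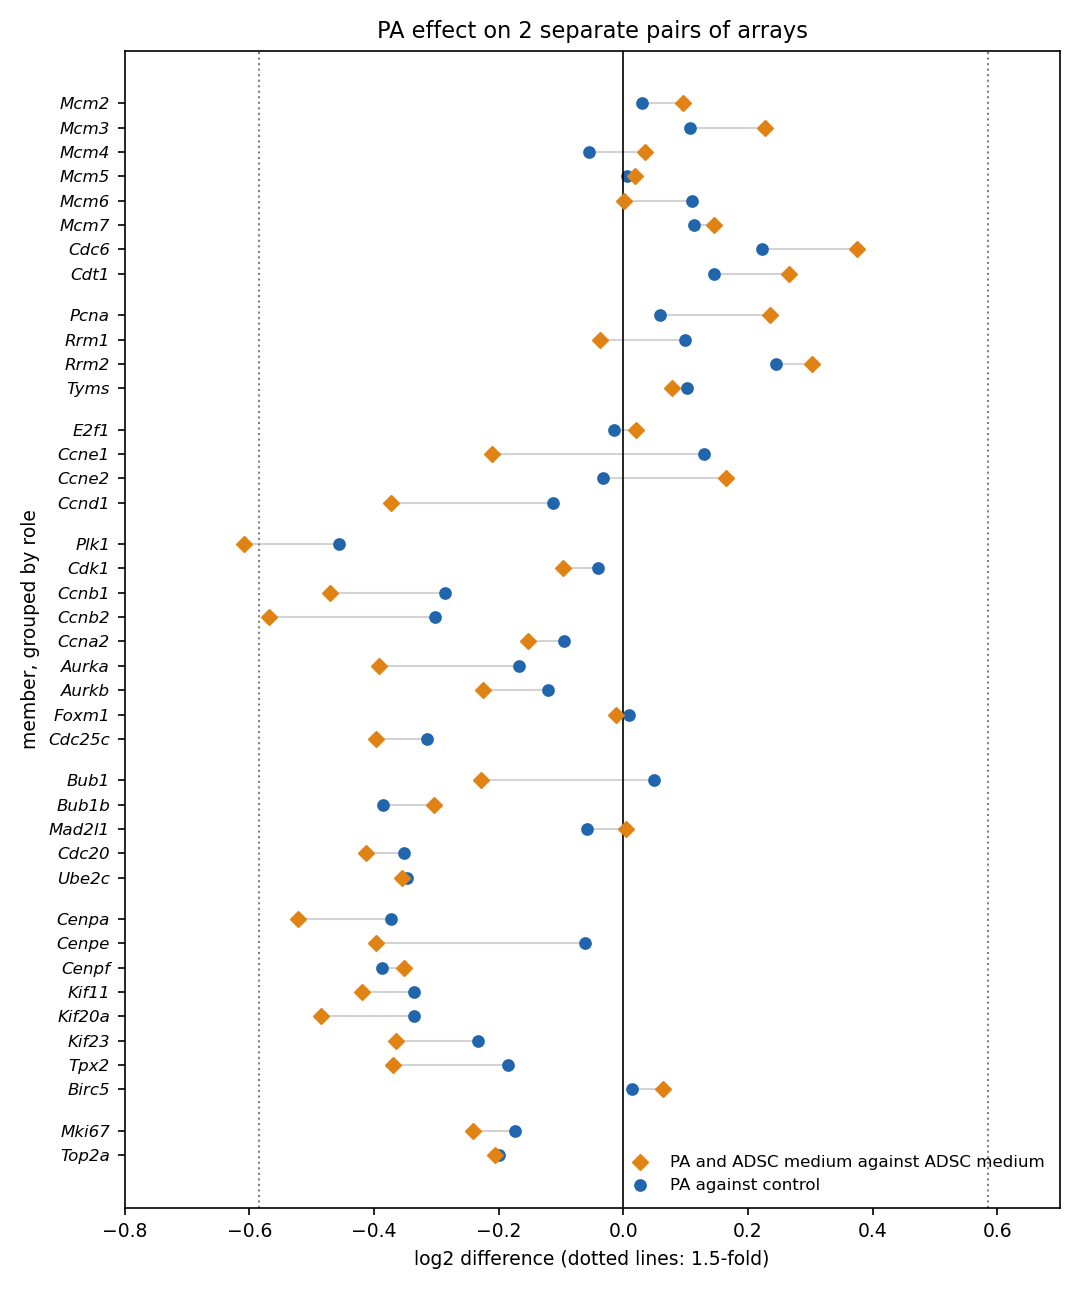
PA difference (log2) of each of the 40 members, grouped by role, on 2 separate pairs of arrays, PA and ADSC medium against ADSC medium (orange diamonds) and PA against control (blue circles), with dotted lines at 1.5-fold. Most G2 and M phase genes lie left of 0 on both pairs, Plk1 at -0.61 and -0.46, whereas Cdc6 lies right of 0 at 0.37 and 0.22.

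**Figure D3:**
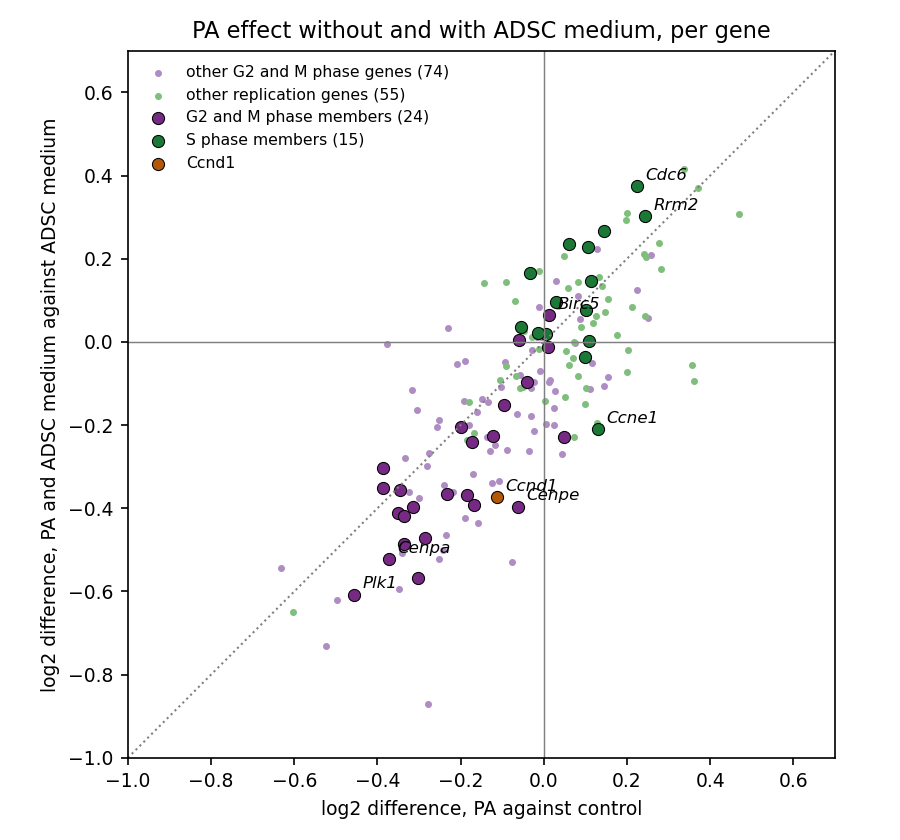
PA difference with ADSC medium (vertical) against PA difference without it (horizontal), both log2, for the 40 members and for 74 other G2 and M phase genes and 55 other replication genes, with equal values on the dotted line. Of the G2 and M phase members 20 of 24 lie at lower left and 10 of 15 S phase members at upper right.

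ADSC medium was also compared with control. Without PA, both gene groups were close to the control level on the ADSC medium array. The G2 and M phase members had a median of -0.03, with 15 lower and 9 higher, where 51.6% of all 18198 genes were lower and 48.1% higher. The S phase members had a median of 0.02, with 10 higher and 5 lower (-0.003 and 7 higher with the normexp background). No S phase or G2 and M phase member reached 1.2-fold in either direction, a difference that 9.78% of all genes showed upward and 8.36% downward. Top2a (-0.22) and Kif11 (-0.21) were the lowest of the mitotic genes and Ccnb2 (0.13) the highest, but as the mean of detected probes Top2a was at -0.05 and Kif11 at 0.03. The median of all genes was -0.01, and 3.59% of them differed by at least 1.5-fold.

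Of the 40 members, the cyclin genes Ccnd1, Ccne1 and Ccne2 differed most between ADSC medium and control. Other cyclins of G1 did not share this, with Ccnd2 at -0.04 and Ccnd3 at -0.02. Ccnd1, whose product cyclin D1 activates Cdk4 and Cdk6 in response to growth factors, was read from a probe printed on 10 spots of each array. It had levels of 11.61 with PA and ADSC medium, 11.50 with PA, 11.99 with ADSC medium and 11.61 in control, with an SD over the 10 spots of 0.0496 to 0.0664 on an array. Only the array with ADSC medium alone stood apart: it was 0.38 higher than control, and PA and ADSC medium was 0.37 lower than ADSC medium. Ccne1, the cyclin E1 gene, had levels of 12.36 with PA and ADSC medium, 12.46 with PA, 12.57 with ADSC medium and 12.33 in control, and a second probe gave the same order of the highest and lowest arrays. Ccne2, the cyclin E2 gene, had levels of 8.49 with PA and ADSC medium, 8.52 with PA, 8.32 with ADSC medium and 8.55 in control. The 2 cyclin E genes thus differed in opposite directions between ADSC medium and control, Ccne1 by 0.24 and Ccne2 by -0.23.

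PA and ADSC medium was compared with PA to ask how the genes differed when ADSC medium was given together with the fatty acid. The G2 and M phase members were not nearer to the control level with both treatments. They differed from PA alone by a median of -0.14, and thus lay farther below control. Of the 24 genes 22 were lower and 2 higher, against 53.5% of all 18751 genes lower and 46.4% higher, with a median of -0.02. Only 3 were lower by at least 1.2-fold, Kif11 (-0.29), Bub1 (-0.29, or 0.13 at its second probe) and Cenpe (-0.28). Of all genes 17.4% were as much lower, dim genes included. That share was 20.0% at levels of 7 to 9, 13.9% at 9 to 11 and 7.61% at 11 and over. Mad2l1 (0.07) and Bub1b (0.01) were the members on the other side. The S phase members had a median of 0.06, with 9 higher, 5 lower and Mcm5 at the same level on both arrays. Pcna, the sliding clamp of the replicative polymerases, had the highest difference at 0.23. Its probe, with 8 spots kept on each array, gave levels of 15.31 with PA and ADSC medium, 15.09 with PA, 15.08 with ADSC medium and 15.03 in control, with an SD over spots of 0.0317 to 0.0402. The array with both treatments was therefore the one that stood apart for Pcna. Rrm1 had the lowest difference, at -0.26. None of the 40 members differed by 1.5-fold, which 8.98% of all genes did.

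PA and ADSC medium was last compared with control. The medians of both groups lay farthest apart in this comparison, at -0.37 for the G2 and M phase members (1.29-fold lower) and 0.14 for the S phase members. Of the 24 genes 23 were lower and 16 lower by 1.2-fold or more, where 53.3% and 17.4% of all 18252 genes were. Mad2l1, at 0.01, was the member that was not lower. Of the 15 S phase members 13 were higher, and 3 reached 1.2-fold, Cdc6 (0.39), Cdt1 (0.32) and Pcna (0.29), where 46.5% and 14.3% of all genes were. Plk1 was 1.57-fold lower and Kif11 1.54-fold lower, where 3.67% of all genes were lower by 1.5-fold and 8.36% differed by it in either direction. The Kif11 value was -0.56 with the normexp background and -0.38 as the mean of its detected probes, so that it no longer reached 1.5-fold under either. This comparison shares its arrays with those above and adds no separate measurement of the PA difference.

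**Figure D4:**
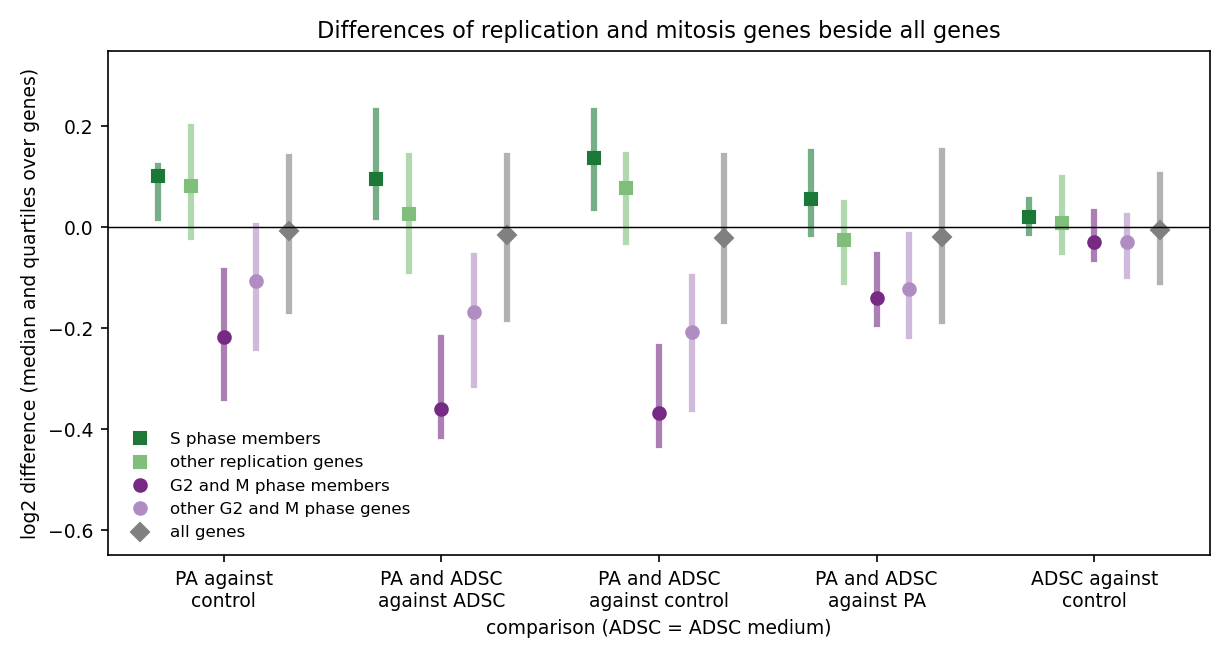
Median (marker) and quartiles (bar) of the log2 difference over the 15 S phase members, 55 other replication genes, 24 G2 and M phase members, 74 other G2 and M phase genes and all genes compared, in each of the 5 comparisons. The G2 and M phase medians are -0.22, -0.36, -0.37, -0.14 and -0.03 from left to right, and the S phase medians 0.10, 0.10, 0.14, 0.06 and 0.02.

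Across the 4 arrays, both arrays with PA lay below both arrays without PA for 18 of 24 G2 and M phase members and above them for 0, where 24.3% of all 17355 genes well above background on every array lay below and 20.8% above. For the S phase members both arrays with PA lay above both others in 9 of 15 cases and below them in 0. The array with both treatments was the lowest for 21 of 24 G2 and M phase members and the highest for 9 of 15 S phase members, where it was the lowest for 30.8% and the highest for 23.8% of all genes. Members at levels of 11 and over behaved like the whole group. The 15 such G2 and M phase genes had a median PA difference of -0.19 and the 12 such S phase genes one of 0.10, while all 4364 genes at that level had a median of -0.005. Marker sums of other cell types also differed between the arrays. The summed linear intensity of the macrophage markers was 1215 with PA and ADSC medium, 560 with PA, 1045 with ADSC medium and 652 in control. That of the adipose markers was 4083 with PA and ADSC medium, 1985 with PA, 4294 with ADSC medium and 2819 in control, so that both sums were higher on the arrays with ADSC medium than on those without. Of 3 macrophage markers compared, all were higher with ADSC medium than in control. Between PA and ADSC medium and PA alone, 2 were higher and 1 lower. Only 1 adipose marker was compared. The hepatocyte sum was 69.4 with PA and ADSC medium, 73.5 with PA, 78.1 with ADSC medium and 83.1 in control. The endothelial sum was 421 with PA and ADSC medium, 502 with PA, 313 with ADSC medium and 387 in control, higher on both arrays with PA. Of 3 endothelial markers compared, however, 1 was higher and 2 lower with PA than in control. Between PA and ADSC medium and ADSC medium alone, 2 were higher and 1 lower. The biliary sum was 1013 with PA and ADSC medium, 932 with PA, 1212 with ADSC medium and 1216 in control. Its members differed among themselves, since Krt7 was lower and Sox9 higher on both arrays with ADSC medium than on both without. Their part in the results was not tested.

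The order was also visible at the level of single probes. Of the 40 G2 and M phase probes that were well above background on every array, 35 were lower on the PA array than on the control array and 36 were lower with PA and ADSC medium than with ADSC medium. By gene, 51.3% and 52.4% of all genes were lower in these comparisons. Of 12 G2 and M phase genes with several such probes, 9 were lower with PA at every probe and 3 were split, Kif11 among them. Of 22 S phase probes, 18 were higher with PA than in control, where 48.5% of all genes were. Of 6 S phase genes with several such probes, 3 were higher at every probe and 3 were split. A second E2f1 probe, on 10 spots, gave 9.18 with PA and ADSC medium against 8.96 in control, with both single treatments in between.

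Further genes of the same processes were followed in lists that hold no member. A list of 74 other G2 and M phase genes had medians of -0.11 for PA against control and -0.17 for PA and ADSC medium against ADSC medium, with 55 and 62 genes lower. Of all genes, 51.3% and 52.4% were lower. Both PA differences were below 0 for 50 of the 74, and for 33.9% of all genes. At 1.5-fold, Troap, which encodes a spindle-associated protein, was lower with PA than in control (-0.63, or -0.45 at its weakest under the alternatives tried). With PA and ADSC medium against ADSC medium, Pimreg (-0.87), the spindle pole gene Aspm (-0.73), Sapcd2 (-0.62) and the spindle-binding gene Nusap1 (-0.59) were lower by as much. These 4 and Troap were the 5 that reached it in PA and ADSC medium against control, Troap at -0.64 (-0.46 at its weakest). In the same order of comparisons, 3.27%, 3.14% and 3.67% of all genes were lower by 1.5-fold. At their weakest under the alternatives tried, Aspm differed by -0.50 and Nusap1 by -0.56 in PA and ADSC medium against ADSC medium, and Aspm by -0.35 in PA and ADSC medium against control. A list of 55 other replication genes had medians of 0.08 for PA against control and 0.03 for PA and ADSC medium against ADSC medium, with 39 and 30 higher and 16 and 24 lower. Of all genes, 48.5% and 47.4% were higher. For PA and ADSC medium against PA the median of this list was -0.03, on the other side of 0 from that of the S phase members. In that list Rpa1, a subunit of the single-stranded DNA binding protein, was the only gene past 1.5-fold, and it was lower: levels were 13.20 with PA and ADSC medium, 13.10 with PA, 13.85 with ADSC medium and 13.70 in control. Its PA differences were -0.65 with and -0.60 without ADSC medium. The promoter windows of these lists were divided like those of the members. Of 60 other G2 and M phase genes with a window, 40 (66.7%) had a CHR match and 26.7% an E2F match. Of 42 other replication genes with a window, 23.8% had a CHR match and 26 (61.9%) an E2F match.

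Regulators of these waves were followed in further lists. The list of 10 G1 cyclins and kinases, that of 12 E2F and pocket protein genes and that of 7 MuvB and B-Myb genes held no gene that reached 1.5-fold in any of the 5 comparisons. The B-Myb gene Mybl2 differed by 0.34 between PA and control and by 0.28 between PA and ADSC medium and ADSC medium alone, opposite in direction to most mitotic genes. Of 7 inhibitors of cyclin-dependent kinases, 6 were lower with PA than in control by any amount, where 51.3% of all genes were. Cdkn2c was at -0.41 and Cdkn1b (p27) at -0.39, and none of the 7 reached 1.5-fold in that comparison. Cdkn1a, which encodes p21, was the one that was higher, with levels of 13.54 with PA and ADSC medium, 13.32 with PA, 13.17 with ADSC medium and 12.93 in control. The order of the Cdkn1a arrays was thus the reverse of that of Plk1, although Plk1 differed by only -0.05 between ADSC medium and control, within the spot SD. A link between these genes was not tested. Cdkn1a was 0.61 higher with PA and ADSC medium than in control (0.58, just short of 1.5-fold, with 75th percentile scaling), where 4.68% of all genes were higher by 1.5-fold, and Cdkn2d, an INK4 inhibitor gene, differed by -0.59.

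The list of proliferation restraint genes held 15, among them Mdm2, which does not itself restrain proliferation. Of the 15, 2 were lower by at least 1.5-fold with PA than in control, as were 3.27% of all genes. Gas1, the growth arrest-specific membrane protein gene, had levels of 7.41 with PA and ADSC medium, 6.38 with PA, 7.86 with ADSC medium and 7.37 in control. Sesn1, a p53-regulated stress gene, had levels of 11.48 with PA and ADSC medium, 9.95 with PA, 11.15 with ADSC medium and 10.73 in control. For both, only the PA array lay below control, and PA and ADSC medium was higher than PA by 1.03 for Gas1 and 1.54 for Sesn1. Sesn1 did not merely return to the control level, since both arrays with ADSC medium lay above it. Btg1, an antiproliferative gene, was like Sesn1 highest with both treatments, at 13.63 against 12.67 with PA, 12.92 with ADSC medium and 12.58 in control. Mdm2, the p53 ubiquitin ligase gene, differed from control by 0.70 with PA and ADSC medium, 0.57 with PA and 0.29 with ADSC medium, and was past 1.5-fold only with both treatments. Sesn1, Btg1 and Mdm2 were the 3 genes of the list at least 1.5-fold higher with both treatments than in control, where 4.68% of all genes were. The remaining genes of the list stayed within 1.5-fold in all 5 comparisons.

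**Figure D5:**
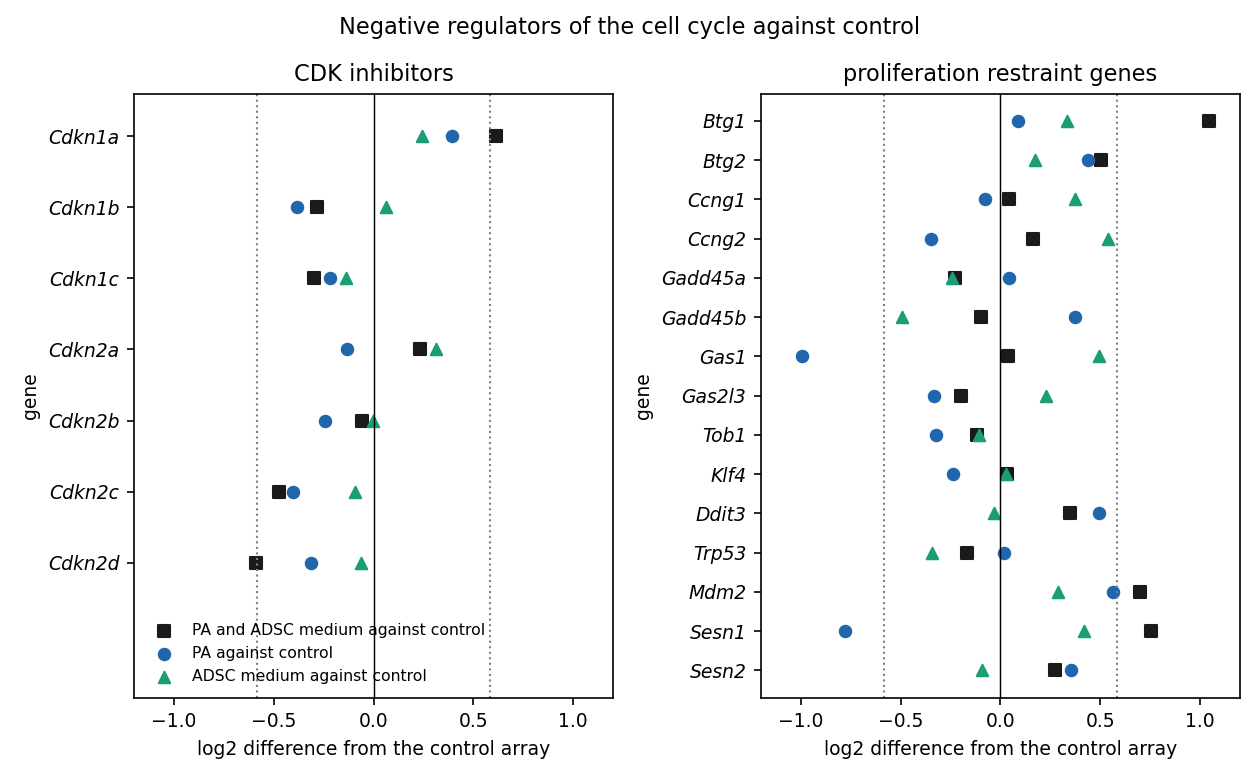
Log2 difference from the control array for 7 inhibitors of cyclin-dependent kinases (left) and the 15 genes of the proliferation restraint list, Mdm2 included (right), with PA and ADSC medium (black squares), PA (blue circles) and ADSC medium (green triangles), and dotted lines at 1.5-fold. Cdkn1a lies at 0.61 with PA and ADSC medium, 0.39 with PA and 0.25 with ADSC medium, while Gas1 and Sesn1 lie at -0.99 and -0.78 with PA alone.

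The authors' deposited table of probes higher with PA than in control names 1580 probes, and their deposited table of probes higher with PA than with PA and ADSC medium names 920. No probe of the 40 members is in either. The array held 41174 probes, so each table is a small part of it and this absence says little about the members. Nor could a probe lower with PA than in control be in the first table. The Mdm2 probe is in the first.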

How the data were processed

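Arrays of Agilent design 014868, annotated on mouse build mm9, were scanned, per the file headers, with Agilent Feature Extraction software in version 12.1.1.1 (protocol GE1_105_Dec08). The deposited processed signal is an intensity that the authors' scanner software had corrected for background and spatial trends, without normalization across arrays, as the file headers record. The authors' quantile normalization is named in the series design text, and R 3.5.1 in the submitters' processing notes. The other deposited files are lists of probe names without values. Here control spots and 82 to 104 outlier-flagged spots an array were dropped, the deposited intensities were taken to log2, replicate spots were averaged and quantile normalization of the 4 arrays was done with limma 3.58.1 in R 4.3.3. The other steps ran in Python 3.11.15 (pandas 2.3.3, numpy 2.4.6, matplotlib 3.10.9).

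RefSeq accessions named 28680 probes, and 12466 kept the array's name. A gene was represented by its brightest probe on average. It was compared where it was well above background (on more than 50% of its spots) on at least 1 of the 2 arrays, with a dim value raised to the lowest level well above background of its array. Called means at least 1.5-fold different; 1.2-fold was added after the data were seen. Recovery of known differences was tested on simulated data. No statistical test between conditions was run, since each has 1 array. Members and gene lists were chosen with earlier results of these data known. All 40 members are accounted for, and full values are printed for those past 1.5-fold in any comparison and for the 3 highest and 3 lowest of each phase in PA against control and in PA and ADSC medium against PA. The levels of Ccnd1 and the second probes were added after their values were seen. From the other lists genes past 1.5-fold are named, at most 5 a list and direction, and Mybl2, Cdkn2c and Cdkn1b were added after their values were seen. Normalization, background, the dim-probe filter, the probe rule, outlier spots and the fold were varied.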

Additional observations from a re-analysis of the deposited data

How the results depend on the processing

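The G2 and M phase medians kept their direction in all 5 comparisons under the 7 alternatives tried, at -0.24 to -0.19 for PA against control and -0.36 to -0.35 for PA and ADSC medium against ADSC medium. Leaving out the dim-probe filter, or asking for all 4 arrays, could not change the medians of the members. All 40 members were well above background on all 4 arrays. Scaling by the 75th percentile in place of quantiles put the S phase median of PA against control at 0.0006 and its gap to the G2 and M phase median at 0.24 in place of 0.32. It put the median of all genes in that comparison at -0.04 in place of -0.01. Taking every probe well above background on all 4 arrays as its own value, an alternative chosen after seeing the data, put the S phase median of PA and ADSC medium against ADSC medium at 0.16. The cause of these shifts was not tested. The members at least 1.5-fold different in PA and ADSC medium against ADSC medium were 2 with the 75th percentile scaling and 0 at 2-fold, in place of 1. In PA and ADSC medium against control they were 1 with normexp, 1 with the mean of detected probes and 0 at 2-fold, in place of 2. At 1.2-fold, chosen after seeing the data, 11 of the 40 members differed between PA and control, 19 between both treatments and ADSC medium, 19 between both treatments and control, 3 between both treatments and PA, and 1 between ADSC medium and control. Of all genes, 12.5% were higher and 15.1% lower by as much between PA and control. These shares were 13.6% and 17.1% between both treatments and ADSC medium, and 14.3% and 17.4% between both treatments and control. Between both treatments and PA, 2990 of 18751 genes were higher and 3270 lower by as much. Between ADSC medium and control, 9.78% were higher and 8.36% lower. Of the named members only Kif11 lost its 1.5-fold difference, as given above. Among members that differed by at least 0.1, the direction turned with 75th percentile scaling for Mcm3 and Mcm6 in PA against control, both to -0.01. With the mean of detected probes it turned for Top2a in PA against control (0.03), for Kif11 in ADSC medium against control (0.03) and for Cdk1 in PA and ADSC medium against control (0.09). No paired analysis was possible because each condition has 1 array.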
